A study of Mus musculus with 8 samples.

Results

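Ly6C-high MCs and Ly6C-low MCs of mouse blood were compared over 3 mouse groups at once, as all 4 Ly6C-high libraries against all 4 Ly6C-low libraries in a model that also held a term for mouse group. The comparison asks which transcripts separate the subsets whether or not the mouse is diabetic. Of the 16486 genes of the deposited table, 12527 had a mean log2 value of 1 or more over the 8 libraries, and these genes are described here. CT mice were C57/BL6. For T1DM, C57/BL6 mice received the beta cell toxin streptozotocin (STZ) at 50 mg/kg per day on 5 days, starting at 8 weeks. For T2DM, db/db mice were used, which lack a working leptin receptor and grow obese and diabetic. Mice were aged 20 to 22 weeks, and CD11b+Ly6G- blood cells were sorted by their Ly6C level. RNA of the sorted cells was extracted per mouse and pooled over 5 mice per group. CT mice contributed 2 libraries of each subset, T1DM mice 1 and T2DM mice 1. Pools were sequenced in duplicate, so that the CT pair of a subset need not hold the spread between mice and p-values measure only the spread between these libraries. CT libraries came from a NextSeq 500 while the diabetic ones came from a HiSeq 4000. Both subsets of a mouse group were run on the same sequencer.

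Monocytes leave the bone marrow as Ly6C-high cells, which carry the chemokine receptor Ccr2, enter inflamed tissue and become macrophages or dendritic cells there. A share of them loses Ly6C in the blood and becomes Ly6C-low monocytes, which crawl along the vessel wall, clear debris from the endothelium and depend on the nuclear receptor Nr4a1 and on Cebpb. The human counterparts are called classical and nonclassical monocytes. CD11b and the absence of Ly6G do not set monocytes apart from all NK cells, B cell subsets and other CD11b-bearing leukocytes, and bulk RNA cannot tell fewer cells of a type from less RNA per cell.

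The genes of the sorted antigen followed the gate. Ly6c2, which encodes Ly6C2, had log2 values of 8.61 and 8.56 (CT), 8.72 (T1DM) and 8.58 (T2DM) in Ly6C-high MCs and 4.07 and 2.69 (CT), 3.20 (T1DM) and 3.53 (T2DM) in Ly6C-low MCs, a log2FC of 5.25 ± 0.26 (SE, n = 4 per subset, limma adjusted p = 2.85e-06), and Ly6c1 had a log2FC of 3.50. Every Ly6C-high library lay above every Ly6C-low library for both. These values check the sort and are no finding. Itgam, which encodes CD11b and was required of both subsets, differed by 1.03, and the growth factor receptor Csf1r, which both kinds of monocyte carry, by 0.72, under the 2-fold limit. Ly6g was not among the genes analysed here. Ly6c1 and Ly6c2 have 46.8% and 23.7% of their 31-base sequences in common with further mouse genes, so their reads can be divided between copies.

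In the limma test over 8 libraries, 849 genes were called higher in Ly6C-high MCs (6.78% of 12527) and 801 lower (6.39%), with an adjusted p-value under 0.01 and a log2FC beyond 1 in size. The counts were alike, but the sizes were not. Of the called genes, 182 rose and 412 fell by more than 4-fold, 40 rose and 184 fell by more than 8-fold, and 13 rose and 76 fell by more than 16-fold. The median log2FC was 1.45 among the genes called higher, -2.04 among those called lower and 0.01 over the 12527 genes. All Ly6C-high libraries lay above all Ly6C-low libraries for 2618 genes (20.9%) and below them for 2033 (16.2%), and this held for 804 of the 849 and 768 of the 801 called genes. When the CT libraries of a subset were averaged to 1, a fit chosen after seeing the data, 686 genes were called higher and 622 lower, and 1265 of the 1650 calls were kept. A difference past 2-fold the same way in each of the 3 mouse groups was found for 526 of the 849 (62.0%) and 614 of the 801 (76.7%). Over all 12527 genes it was found for 534 in the higher and 655 in the lower direction. High shares among called genes are in part built in, since a call needed a log2FC beyond 1 over these same libraries.

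**Figure D1:**
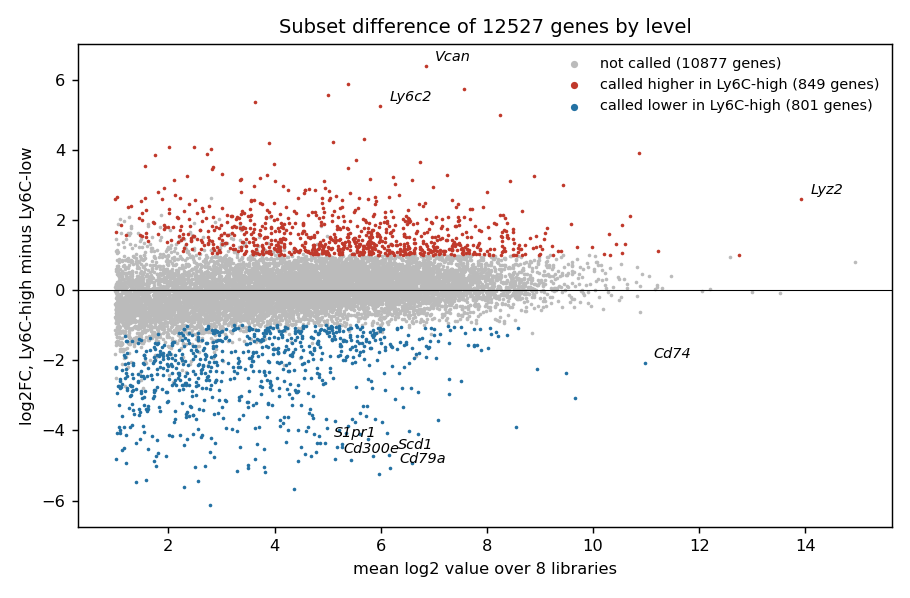
Subset difference (log2FC, vertical axis) against the mean log2 value over 8 libraries (horizontal axis) of 12527 genes, each a point, with the 849 genes called higher in Ly6C-high MCs in red and the 801 called lower in blue. Red points reach into the most abundant genes on the right, whereas the deepest blue points lie at low means.

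Direction went with abundance. Among the 3314 genes with a mean log2 value from 1 to under 3, 3.2% were called higher and 9.9% lower. Among the 3723 genes from 5 to under 7, the shares were 8.19% and 4.3%, and among the 187 genes at 9 or above they were 13.4% and 1.6%. Raised to the power of 2, the values summed to between 1020068 and 1090019 in the Ly6C-high and between 838696 and 878313 in the Ly6C-low libraries. When each library was rescaled to the same sum, the median over the 12527 genes moved to -0.29 and 478 genes were called higher and 1313 lower, so that the near-equal split of the calls depends on the scaling while the sign of each of the 1650 called genes did not change.

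Identity genes of classical monocytes were among the largest rises. Of the 15 genes on the list, 13 were called higher and 0 lower, with a median log2FC of 2.95, and without Ly6c2, the gene of the sorted antigen, 12 of 14 were called higher and 0 lower, with a median of 2.80. Vcan, the matrix proteoglycan versican, had log2 values of 9.49 and 9.53 (CT), 9.23 (T1DM) and 11.97 (T2DM) in Ly6C-high MCs and 3.66 and 3.41 (CT), 3.34 (T1DM) and 4.23 (T2DM) in Ly6C-low MCs, a log2FC of 6.40 ± 0.28 (SE, n = 4 per subset, limma adjusted p = 1.45e-06). The chitinase-like Chil3 (Ym1) had 10.37 and 10.39 (CT), 9.32 (T1DM) and 11.67 (T2DM) in Ly6C-high MCs and 4.35 and 4.09 (CT), 3.88 (T1DM) and 6.45 (T2DM) in Ly6C-low MCs, a log2FC of 5.74 ± 0.17 (SE, n = 4 per subset, limma adjusted p = 3.85e-07). F13a1, the coagulation factor XIII A subunit, had 10.52 and 10.53 (CT), 10.33 (T1DM) and 11.58 (T2DM) in Ly6C-high MCs and 5.42 and 5.38 (CT), 5.68 (T1DM) and 6.52 (T2DM) in Ly6C-low MCs, a log2FC of 4.99 ± 0.10 (SE, n = 4 per subset, limma adjusted p = 6.51e-08). No Ly6C-high library of any of these genes overlapped with a Ly6C-low library, and the T2DM Ly6C-high library was the highest of the 8 for each. Ccr2, the receptor that draws monocytes out of the marrow, had 10.81 and 10.76 (CT), 10.83 (T1DM) and 11.37 (T2DM) in Ly6C-high MCs and 7.67 and 7.74 (CT), 7.77 (T1DM) and 8.57 (T2DM) in Ly6C-low MCs, a log2FC of 3.00 ± 0.08 (SE, n = 4 per subset, limma adjusted p = 3.47e-07). Haptoglobin (Hp, 2.95), the lipopolysaccharide coreceptor Cd14 (1.87), lysozyme (Lyz2, 2.60) and Plac8 (1.48) were called too, whereas the lectin Clec4e stood at 0.81 and was not called.

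**Figure D2:**
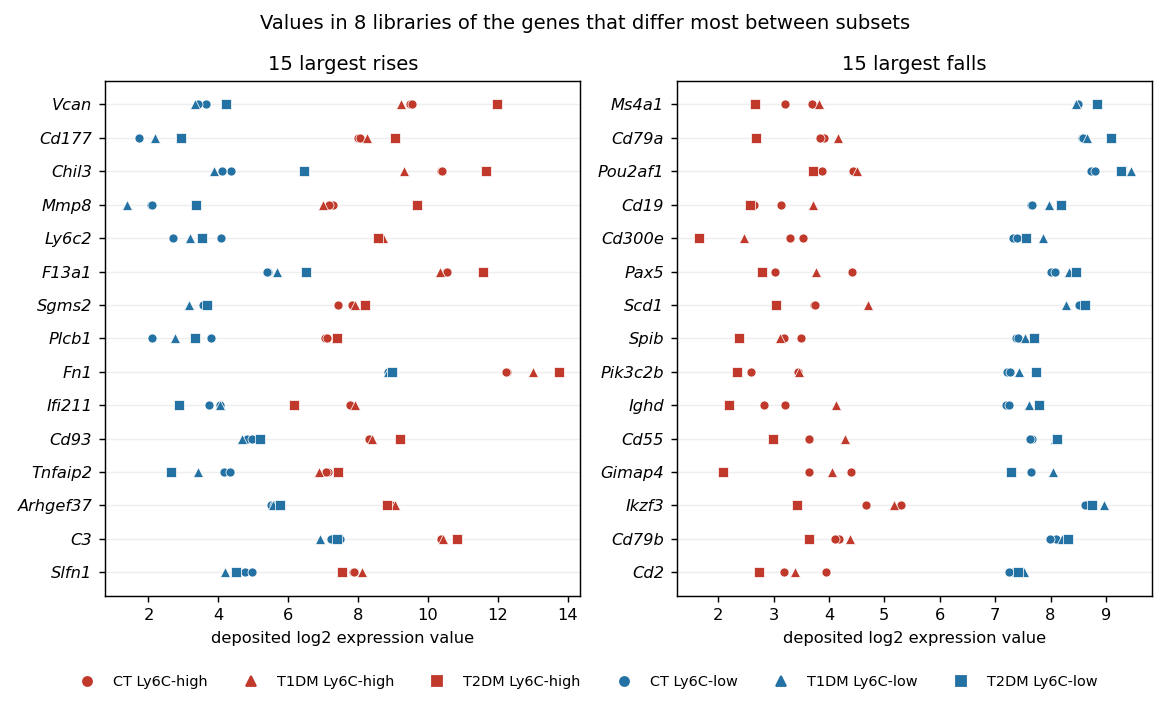
Deposited log2 value (horizontal axis) in each of 8 libraries of the 15 genes with the largest rises and the 15 with the largest falls among called genes with a mean log2 value of 5 or more, with red for Ly6C-high, blue for Ly6C-low and a symbol per mouse group. For each of the 30 genes the 4 red and the 4 blue points are separate.

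Genes of matrix, coagulation and granules were called higher in part. In the list of matrix proteins and matrix proteases, 7 of 19 were called higher and 1 lower (median 0.71), with rises of fibronectin (Fn1, 3.90), the collagenase Mmp8 (5.56), Tgfbi (3.12) and Mmp19 (2.24), and a fall of the heparan sulphate proteoglycan Sdc4 (-3.57). Fn1 was among the most abundant genes that differed, at 12.26 and 12.24 (CT), 12.99 (T1DM) and 13.74 (T2DM) in Ly6C-high MCs and 8.92 and 8.86 (CT), 8.87 (T1DM) and 8.97 (T2DM) in Ly6C-low MCs. The coagulation list had 4 of 10 genes called higher and 0 lower, with F10 (2.25), annexin A2 (Anxa2, 1.49) and F5 (1.09) beside F13a1. Of 8 granule proteins, 4 were called higher and 0 lower (median 2.32), led by Cd177 (5.89), but none of these calls belonged to that list alone, since Cd177, Chil3 and Lyz2 also stood among the classical monocyte genes and Mmp8 among the matrix and neutrophil genes. Of 8 S100 calcium-binding proteins 4 were called higher and 0 lower, led by S100a4 (2.33), and 1 after rescaling to a common sum or without the T2DM libraries. Cd177, Mmp8 and Chil3 are also known from neutrophils. In the neutrophil list 3 of 8 were called higher and 0 lower, and its summed level was 9.29 to 10.60 in the Ly6C-high and 7.35 to 8.24 in the Ly6C-low libraries. Within that list Padi4 and Csf3r rose with Mmp8, whereas Cxcr2 (-1.49) and Trem1 (-1.38) were not called and had negative log2FC (both were called lower when libraries were rescaled to a common sum). The part of neutrophil RNA in these rises was not tested.

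In the complement list of 14 genes, 3 were called higher and 1 lower. C3, the component on which all complement routes meet, had 10.37 and 10.36 (CT), 10.44 (T1DM) and 10.83 (T2DM) in Ly6C-high MCs and 7.23 and 7.48 (CT), 6.92 (T1DM) and 7.39 (T2DM) in Ly6C-low MCs, a log2FC of 3.24 ± 0.11 (SE, n = 4 per subset, limma adjusted p = 6.83e-07), with no overlap. The alternative pathway factor Cfb (2.57) was also called higher. The membrane regulator Cd55, which speeds the decay of the convertases, was among the 15 largest falls, with 3.63 and 3.64 (CT), 4.30 (T1DM) and 2.99 (T2DM) in Ly6C-high MCs and 7.67 and 7.62 (CT), 8.08 (T1DM) and 8.11 (T2DM) in Ly6C-low MCs, a log2FC of -4.23 ± 0.20 (SE, n = 4 per subset, limma adjusted p = 2.46e-06). Cfb shares 75.5% of its 31-base sequences with other mouse genes and C3 0%.

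Receptors for microbial products stood higher in Ly6C-high MCs wherever they were called. Of 18 pattern recognition genes, 7 rose and 0 fell (median 0.67). The flagellin receptor Tlr5 had 3.78 and 2.92 (CT), 4.38 (T1DM) and 4.81 (T2DM) in Ly6C-high MCs and 0.91 and 1.00 (CT), 0.60 (T1DM) and 0.37 (T2DM) in Ly6C-low MCs, a log2FC of 3.25 ± 0.41 (SE, n = 4 per subset, limma adjusted p = 0.000388). It was followed by Cd14 (1.87), Myd88 (1.46), Tlr2 (1.40), Tlr6 (1.28), Tlr8 (1.12) and Tlr13 (1.01), where Myd88 is the adaptor that most Toll-like receptors use and Tlr2 and Tlr6 pair to bind bacterial lipopeptides. The endotoxin receptor Tlr4 stood at 0.50 and was not called. Among 14 inflammasome genes 4 rose and 0 fell, namely the sensors Mefv (2.78), Nlrp3 (1.76), Nlrp1a (1.71) and Nlrp1b (1.36), whereas their adaptor Pycard stood at 0.66 and was not called. After rescaling to a common sum 4 of the pattern recognition genes were called, without Tlr6, Tlr8 and Tlr13. None of 12 NF-kB subunits and inhibitors was called in either direction (median -0.07).

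Paired immune receptors moved in both directions. In the list of CD300, TREM and related receptors, 11 of 21 were called higher and 4 lower (median 1.16). The lipid sensor Trem2 had 5.52 and 5.32 (CT), 5.48 (T1DM) and 5.66 (T2DM) in Ly6C-high MCs and 1.25 and 2.82 (CT), 2.26 (T1DM) and 2.50 (T2DM) in Ly6C-low MCs, a log2FC of 3.29 ± 0.31 (SE, n = 4 per subset, limma adjusted p = 8.55e-05). Higher calls also took in the lectin Cd33 (3.16), Lilra6 (2.82), Cd300lg (2.62), Pira2 (1.93), Lilrb4a (1.92) and Siglece (1.87) and the signalling adaptor Tyrobp (1.47). On the other side, Cd300e had 3.29 and 3.54 (CT), 2.46 (T1DM) and 1.64 (T2DM) in Ly6C-high MCs and 7.32 and 7.39 (CT), 7.87 (T1DM) and 7.57 (T2DM) in Ly6C-low MCs, a log2FC of -4.80 ± 0.32 (SE, n = 4 per subset, limma adjusted p = 1.27e-05), and the activating receptor Lilra5 (-3.22), Cd300ld (-1.51) and Treml4 (-1.27) fell with it. Neither subset's libraries overlapped with the other's for Trem2 or Cd300e. Of 8 Fc receptors, 2 were called higher and 3 lower. The high-affinity IgG receptor Fcgr1 (2.93) and Fcgr3 (2.08) were called higher and Fcgr4 (-2.06) lower. C-type lectins had 6 of 16 genes called higher, led by Clec5a (3.88), Clec4a2 (2.84) and the beta-glucan receptor Clec7a (2.45), and 0 lower.

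The Ms4a family of membrane proteins, encoded side by side on chromosome 19, was called higher in 7 of 8 members and lower in 0 (median 2.19), apart from its B cell member Ms4a1 (CD20), which was listed with the B cell genes and fell by 5.23 on the log2 scale. Ms4a8a (3.59), Ms4a4c (3.02), Ms4a6d (2.86), Ms4a6b (2.32), Ms4a4a (2.06), Ms4a7 (1.81) and Ms4a6c (1.66) were the 7 rises. The remaining member of the 8 had a negative log2FC and was not called. It was called lower after rescaling to a common sum and without the T2DM libraries. Ms4a8a had 5.44 and 5.33 (CT), 5.82 (T1DM) and 6.52 (T2DM) in Ly6C-high MCs and 1.42 and 2.48 (CT), 1.83 (T1DM) and 3.03 (T2DM) in Ly6C-low MCs, and Ms4a1 had the opposite order, with 3.21 and 3.69 (CT), 3.82 (T1DM) and 2.66 (T2DM) in Ly6C-high MCs and 8.50 and 8.50 (CT), 8.46 (T1DM) and 8.84 (T2DM) in Ly6C-low MCs. The libraries of the subsets did not overlap for either gene.

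Chemoattractant receptors moved in both directions. Of 18 genes, 3 rose and 5 fell. The rises were those of Ccr2, the platelet-activating factor receptor Ptafr (2.11) and the leukotriene B4 receptor Ltb4r1 (1.78), and the falls those of the sphingosine 1-phosphate receptors S1pr1 (-4.35), S1pr5 (-1.63) and S1pr4 (-1.33) and of Ccr7 (-3.49) and Cxcr5 (-4.61). S1pr5 is also a receptor of NK cells and Cxcr5 and Ccr7 are receptors of lymphocytes. The part of lymphocyte RNA in these 5 falls, that of S1pr1 included, was not tested. Cx3cr1, which Ly6C-low monocytes carry at high levels as protein, stood at 0.60 and was not called. Of 11 eicosanoid synthesis genes, 2 were called higher and 1 lower. The rises were those of Alox5ap (2.25), which presents arachidonic acid to 5-lipoxygenase, and of the thromboxane synthase Tbxas1 (1.08), and the lower call was that of 5-lipoxygenase itself (Alox5, -1.11). Without the T1DM libraries 0 genes of this list were called lower. Of 29 growth factor and cytokine receptors, 10 rose and 1 fell, with Notch1 (1.90), Csf3r (1.81), Fas (1.77) and Il6ra (1.27) at the top, and 3 rose under quantile normalization or after rescaling to a common sum.

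Of 21 cytokine and chemokine ligands, 8 rose and 2 fell. Cxcl10, which attracts T cells, had a log2FC of 3.55, and Tnfsf13 (2.25), Ccl9 (2.14), Il1rn (1.92), Ccl6 (1.89), Tnfsf12 (1.69), Il15 (1.51) and Tgfb1 (1.18) followed. The falls were those of Ccl5 (-2.51) and Ccl3 (-2.71), both also made by NK cells. Il1b (-0.34) and Tnf (-0.35), the archetypal inflammatory cytokines, were not called. The median of the list was 0.16 and turned to -0.14 when libraries were rescaled to a common sum. Of 13 ligands of checkpoint and costimulatory receptors, 3 rose, which were Vsir (1.71), Lgals9 (1.47) and Sema4a (1.24), and 3 fell, which were Pdcd1lg2 (-4.42), Tnfsf8 (-2.99) and Cd274 (-2.60), where Cd274 and Pdcd1lg2 encode the ligands of PD-1.

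Transcription factors of myeloid fate were called in equal numbers each way, with 7 of 35 higher and 7 lower (median -0.04). Cebpa, which drives granulocyte and monocyte development, had 6.25 and 6.17 (CT), 6.51 (T1DM) and 6.48 (T2DM) in Ly6C-high MCs and 3.45 and 3.71 (CT), 3.40 (T1DM) and 4.38 (T2DM) in Ly6C-low MCs, a log2FC of 2.62 ± 0.17 (SE, n = 4 per subset, limma adjusted p = 1.2e-05). Higher calls also included Cebpd (2.20), Maf (2.13), Rxra (1.95), Batf3 (1.56) and Rara (1.09), where Maf is a macrophage regulator and Rxra and Rara are nuclear receptors. Lower calls were made for Myc (-3.64), Tbx21 (-3.07), Pparg (-2.58), Nr4a3 (-2.18), Tcf7l2 (-1.87), Bhlhe40 (-1.55) and Mef2c (-1.11). Myc had 2.76 and 3.13 (CT), 2.49 (T1DM) and 3.24 (T2DM) in Ly6C-high MCs and 6.40 and 6.48 (CT), 6.69 (T1DM) and 6.59 (T2DM) in Ly6C-low MCs, a log2FC of -3.64 ± 0.18 (SE, n = 4 per subset, limma adjusted p = 2.83e-06). Pparg, the lipid-sensing nuclear receptor, had 3.47 and 3.60 (CT), 2.37 (T1DM) and 2.16 (T2DM) in Ly6C-high MCs and 5.24 and 5.37 (CT), 5.84 (T1DM) and 5.46 (T2DM) in Ly6C-low MCs, a log2FC of -2.58 ± 0.31 (SE, n = 4 per subset, limma adjusted p = 0.000328). Nr4a1, on which the survival of Ly6C-low monocytes depends, stood at -0.44 with values of 8.11 and 8.08 (CT), 7.34 (T1DM) and 7.03 (T2DM) in Ly6C-high MCs and 7.80 and 8.02 (CT), 8.21 (T1DM) and 8.28 (T2DM) in Ly6C-low MCs, and was not called. Cebpb, the other factor that this subset needs, stood at 0.55 and was not called either. Tbx21 is also an NK cell factor and Myc and Mef2c are expressed in B cells. Of 12 AP-1 and immediate early genes, 3 were called higher, which were Fos (2.62), Atf3 (1.48) and Fosl2 (1.30), and 1 lower, which was Jun (-1.50).

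Of 17 nonclassical monocyte genes, 9 were called lower in Ly6C-high MCs and 0 higher (median -1.22). Besides Cd300e they were Fabp4 (-3.20), Cd36 (-2.80), Itgax (-2.53), Eno3 (-1.99), Dusp5 (-1.65), Treml4 (-1.27), Ear2 (-1.22) and Spn (-1.18). Of the 8 members not called, Cx3cr1 (0.60) and Cebpb (0.55) had a positive log2FC. The others were Itgal (-0.06), Apoc2 (-0.18), Nr4a1 (-0.44), Pou2f2 (-0.86), Adgre4 (-0.88) and Ace (-1.23). Itgax encodes CD11c, and Cd36 and Fabp4 take up and carry fatty acids. Cd36 had 5.27 and 5.63 (CT), 4.91 (T1DM) and 4.88 (T2DM) in Ly6C-high MCs and 7.87 and 7.62 (CT), 7.88 (T1DM) and 8.54 (T2DM) in Ly6C-low MCs, a log2FC of -2.80 ± 0.22 (SE, n = 4 per subset, limma adjusted p = 3.11e-05). The median difference over this list was -0.46 (CT), -1.49 (T1DM) and -1.97 (T2DM), so that it was smallest in CT mice, and 5 genes were called lower without the T1DM and 6 without the T2DM libraries. Scd1, the desaturase that makes monounsaturated fatty acids, was among the 15 largest falls with 3.73 and 3.75 (CT), 4.71 (T1DM) and 3.05 (T2DM) in Ly6C-high MCs and 8.57 and 8.51 (CT), 8.29 (T1DM) and 8.62 (T2DM) in Ly6C-low MCs, a log2FC of -4.69 ± 0.26 (SE, n = 4 per subset, limma adjusted p = 5.15e-06). The cholesterol exporter Abca1 (-1.71) fell as well, whereas the scavenger receptor Msr1 (3.14), Fabp5 (2.03) and Scarb1 (1.35) rose. In the list of lipid uptake and efflux as a whole, 6 of 23 genes rose and 6 fell. Of 22 cholesterol synthesis genes, 1 was called higher (4.55%, against 6.78% of all genes), namely Mvd (1.65), and 0 lower.

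Metabolic groups differed in extent. Of 19 lysosomal proteases, glycosidases and cystatins, 10 rose and 1 fell (median 1.24). Cathepsin L (Ctsl, 2.12), cystatin B (Cstb, 1.92), granulin (Grn, 1.92) and prosaposin (Psap, 1.86) led, and the fall was that of Cst7 (-2.07), which NK cells also express. The 74 nuclear-encoded subunits of the respiratory chain shifted little each and mostly the same way, and 73 had a positive log2FC. The log2FC ran from -0.02 to 1.04 with a median of 0.71. In 54 every Ly6C-high library lay above every Ly6C-low library, which held for 20.9% of all genes. Only 3 (4.05%) were called higher, against 6.78% of all genes, and 0 lower. After rescaling to a common sum the list's median was 0.41 and 0 were called, and without the libraries of either diabetic group 0 were called too. The 79 cytosolic ribosomal proteins had 0 calls in either direction and a median of 0.11, which turned to -0.19 after that rescaling. In glycolysis 4 of 25 genes rose (16%) and 2 fell (8%), against 6.78% and 6.39% of all genes. Ldhb, a lactate dehydrogenase subunit, was the largest with 4.36 and 4.12 (CT), 4.67 (T1DM) and 4.95 (T2DM) in Ly6C-high MCs and 1.18 and 0.33 (CT), -0.30 (T1DM) and 0.53 (T2DM) in Ly6C-low MCs, a log2FC of 4.09 ± 0.34 (SE, n = 4 per subset, limma adjusted p = 4.27e-05). The glucose transporter gene Slc2a3 (-1.19) was called lower. Of 14 genes of the BCL2 family, the pro-apoptotic Bad (1.29) and Bmf (1.05) rose, and the pro-survival Bcl2 (-2.37) and 3 Bcl2a1 copies, which share 79.6% to 89.1% of their 31-base sequences with other genes, fell by 2.13 to 2.95 on the log2 scale. After rescaling to a common sum 0 genes of this list were called higher and 4 lower, and under quantile normalization 1 and 4.

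**Figure D3:**
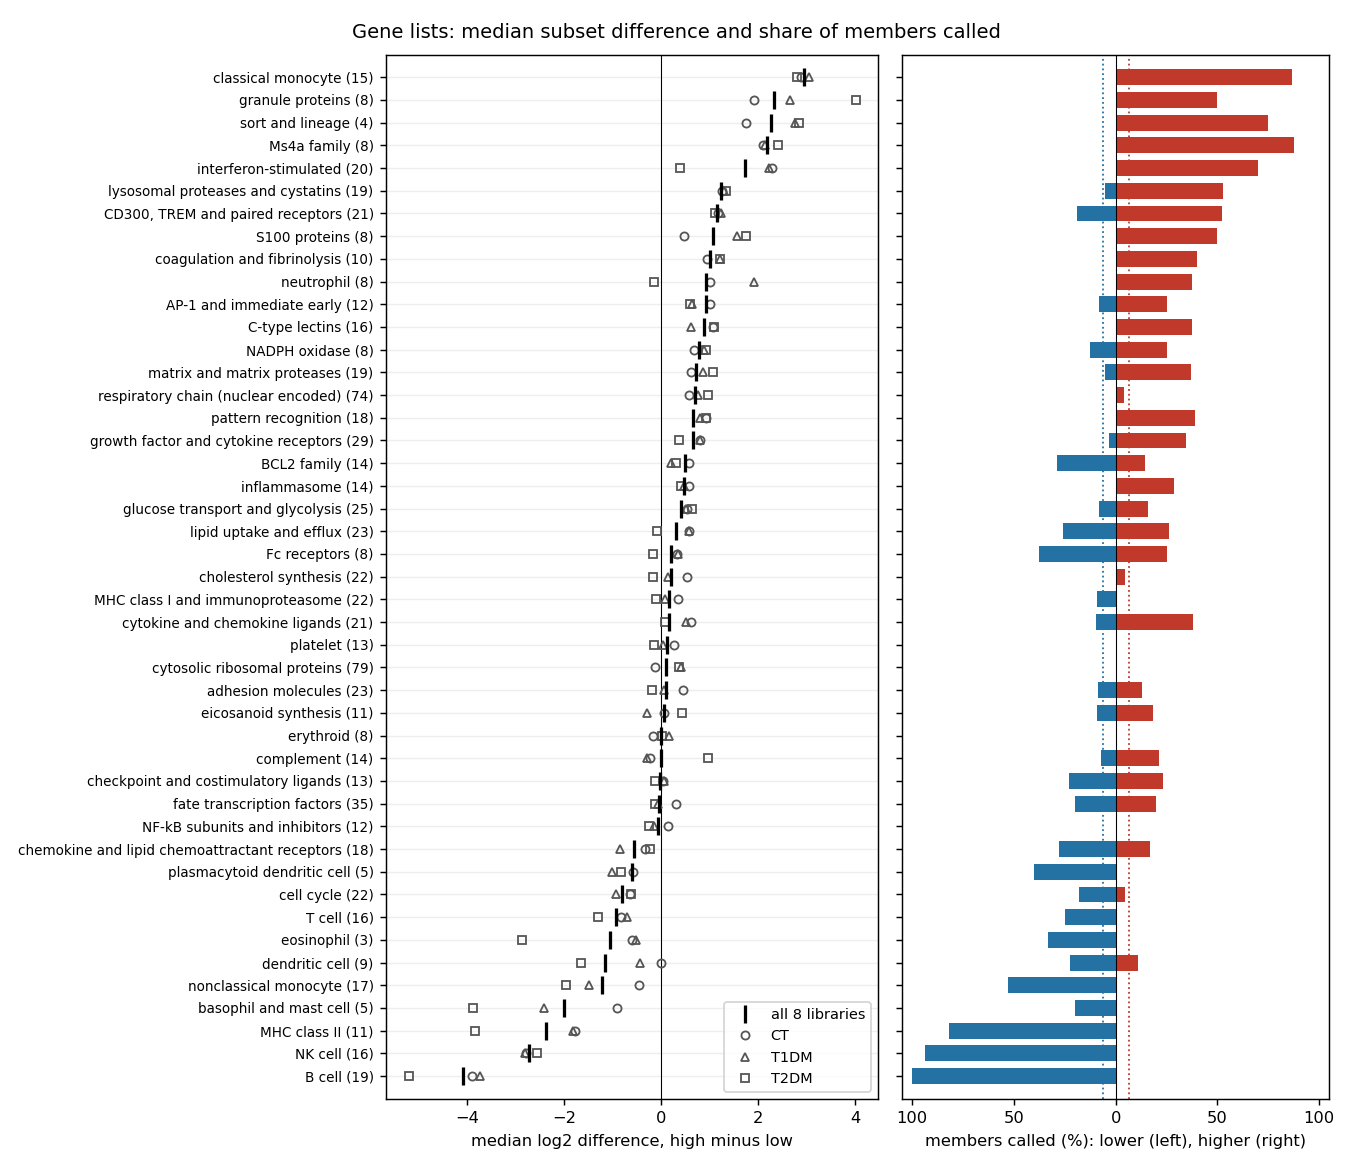
Left, median log2 difference of Ly6C-high minus Ly6C-low of each of 45 gene lists (horizontal axis) over all 8 libraries (bar) and in CT, T1DM and T2DM mice (circle, triangle and square), with the number of genes in brackets. Right, percent of each list's genes called higher (red, to the right) or lower (blue, to the left), with dotted lines at the shares over all genes, 6.78% and 6.39%. Classical monocyte genes stand at the top with a median of 2.95 and B cell genes at the bottom with -4.08.

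Genes of B cells and NK cells were prominent among the falls. All 19 B cell genes with a mean of 1 or more were called lower, with a median of -4.08, and 8 of the 15 largest falls were on this list. Cd79a, a signalling chain of the B cell receptor, had 3.90 and 3.83 (CT), 4.17 (T1DM) and 2.68 (T2DM) in Ly6C-high MCs and 8.56 and 8.59 (CT), 8.66 (T1DM) and 9.08 (T2DM) in Ly6C-low MCs, a log2FC of -5.08 ± 0.28 (SE, n = 4 per subset, limma adjusted p = 4.9e-06). Pax5, the B cell identity factor, had 4.41 and 3.03 (CT), 3.77 (T1DM) and 2.80 (T2DM) in Ly6C-high MCs and 8.01 and 8.08 (CT), 8.33 (T1DM) and 8.46 (T2DM) in Ly6C-low MCs, a log2FC of -4.72 ± 0.32 (SE, n = 4 per subset, limma adjusted p = 1.27e-05). The linear values of the B cell list summed, on the log2 scale, to 9.242 and 9.257 (CT), 9.764 (T1DM) and 8.754 (T2DM) in Ly6C-high MCs and 12.816 and 12.820 (CT), 13.004 (T1DM) and 13.110 (T2DM) in Ly6C-low MCs. Of 16 NK cell genes, 15 were called lower (median -2.73), among them Klrd1 (-3.56), Eomes (-3.12), Ncr1 (-2.90), Nkg7 (-2.87) and Gzma (-2.84), and their sum was 7.235 and 7.381 (CT), 7.657 (T1DM) and 5.721 (T2DM) in Ly6C-high MCs and 10.001 and 9.997 (CT), 10.585 (T1DM) and 8.189 (T2DM) in Ly6C-low MCs. The B cell sum was highest in the T2DM Ly6C-low library, and the NK cell sum lowest in the T2DM library of each subset. In every Ly6C-low library the B cell sum (20 genes) lay above the sum of the nonclassical monocyte list (17 genes). The latter was 12.115 and 12.102 (CT), 12.484 (T1DM) and 12.262 (T2DM) there. The name Ly6C-low MCs stands here for the sorted gate, and the share of B cells in it was not tested. T cell genes were called lower in 4 of 16 (2 with the CT libraries averaged to 1), with summed levels of 5.45 to 6.23 in the Ly6C-high and 6.92 to 7.32 in the Ly6C-low libraries. Of the 801 genes called lower, 79 (9.86%) belonged to these 3 lists or had an immunoglobulin or Klr symbol, with a median log2FC of -3.34, and the other 722 had a median of -1.90. Among the 76 falls past 16-fold they were 26. The 3 lists are short and the other 722 were not sorted by cell type, so that 79 is no full count of lymphocyte genes. Gimap GTPase genes, for instance, which are described below, stood among the 722. The part of B or NK cell RNA in falls given with other lists, such as those of Cd55, Pdcd1lg2, Tnfsf8 and Bcl2, was not tested either.

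**Figure D4:**
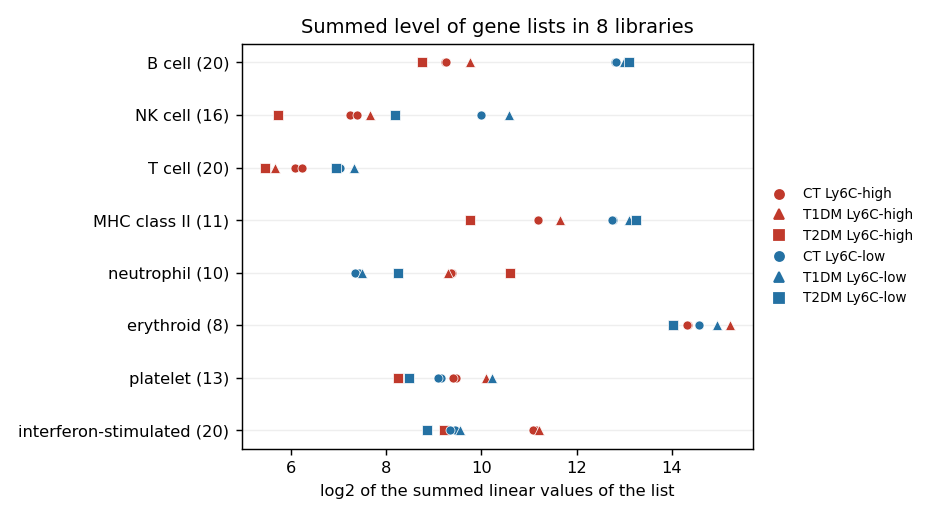
Log2 of the summed linear values of 8 gene lists (horizontal axis) in each of 8 libraries, with red for Ly6C-high, blue for Ly6C-low and a symbol per mouse group, and the number of genes in brackets. B cell, NK cell, T cell and MHC class II sums lie higher in the Ly6C-low libraries, whereas erythroid and platelet sums overlap between the subsets.

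Red cell and platelet genes did not separate the subsets. None of 8 erythroid and none of 13 platelet genes was called, with medians of -0.00 and 0.12. The erythroid sum was 14.02 to 15.22 in the Ly6C-high and 14.02 to 14.94 in the Ly6C-low libraries, so that haemoglobin transcripts were abundant in both, and the platelet sum was 8.24 to 10.10 in the Ly6C-high and 8.47 to 10.21 in the Ly6C-low libraries. Cell cycle genes had 1 of 22 called higher (4.55%) and 4 lower (18.2%, median -0.81), against 6.78% and 6.39% of all genes. The DNA replication gene Mcm6 had the largest of these falls (-2.06). After rescaling to a common sum 0 were called higher and 10 lower.

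MHC class II genes, which present antigen to CD4 T cells and are expressed by B cells, dendritic cells and some monocytes, were called lower in 9 of 11 (median -2.37). Cd74, the invariant chain, had 10.24 and 10.26 (CT), 10.69 (T1DM) and 8.52 (T2DM) in Ly6C-high MCs and 11.78 and 11.79 (CT), 12.14 (T1DM) and 12.36 (T2DM) in Ly6C-low MCs, a log2FC of -2.09 ± 0.35 (SE, n = 4 per subset, limma adjusted p = 0.00191). H2-Aa had 8.60 and 8.61 (CT), 8.98 (T1DM) and 7.00 (T2DM) in Ly6C-high MCs and 10.41 and 10.34 (CT), 10.79 (T1DM) and 11.13 (T2DM) in Ly6C-low MCs, a log2FC of -2.37 ± 0.35 (SE, n = 4 per subset, limma adjusted p = 0.001). H2-Ob (-3.94) and H2-Oa (-3.56), whose product modulates peptide loading and is best known from B cells, fell most, and the transactivator Ciita (-1.07) least. With the CT libraries averaged to 1, 7 of 11 were called, without Cd74 and Ciita. The summed level of the list was 11.185 and 11.186 (CT), 11.653 (T1DM) and 9.752 (T2DM) in Ly6C-high MCs and 12.756 and 12.738 (CT), 13.111 (T1DM) and 13.239 (T2DM) in Ly6C-low MCs. The T2DM Ly6C-high library was the lowest and the T2DM Ly6C-low library the highest of the 8 in this sum, as in the sum of the B cell list. The part of B cell RNA in the MHC class II difference was not tested. MHC class I and immunoproteasome genes, which all nucleated cells carry, had 2 of 22 called lower (9.09%, against 6.39% of all genes) and 0 higher. The lower calls were H2-Q6 (-2.35) and H2-Q7 (-1.93), and of their 31-base sequences 50.3% and 39.1% also occur in other genes.

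Called genes lay next to each other in several places. RefSeq (GRCm38.p6, the assembly also known as mm10) gave a position for 12110 of the 12527 genes, and 13.4% of these were called. In the order of start positions there were 12089 neighbouring pairs. Of these pairs, 265 (2.19%) were called in the same direction against 92 in opposite directions. Stretches of 4 or more neighbours called the same way occurred 10 times among the falls and 1 time among the rises. Immunoglobulin heavy chain genes on chromosome 12 and kappa chain genes on chromosome 6 formed the longest, with 15 genes each. The 8 Gimap GTPase genes, which support lymphocyte survival, fell together on chromosome 6 (48647186 to 48770851) with log2FC from -4.11 to -2.90. Killer lectin receptor genes of the NK complex fell at 129559365 to 130067301 on the same chromosome, 7 in a row. On chromosome 17, 5 MHC class II genes in a row fell (34238905 to 34341410). The stretch of rises lay on chromosome 7 (3816663 to 3915571) and held 5 genes, among them the paired receptors Pira2 and Lilra6, of whose 31-base sequences 96.7% and 49.6% also occur elsewhere, so that reads of 1 member can be counted for its neighbours.

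Of 20 interferon-stimulated genes, 14 were called higher over the 8 libraries and 0 lower (median 1.73). In 3 of the 20 every Ly6C-high library lay above every Ly6C-low library, which held for 20.9% of all 12527 genes. The differences were uneven over mouse groups. The median difference was 2.28 (CT), 2.22 (T1DM) and 0.39 (T2DM), and 19, 18 and 3 of the 20 genes were past 2-fold. Ifit3, an antiviral protein, had 5.64 and 5.72 (CT), 6.16 (T1DM) and 2.36 (T2DM) in Ly6C-high MCs and 2.77 and 2.93 (CT), 2.23 (T1DM) and 1.94 (T2DM) in Ly6C-low MCs, a log2FC of 2.50 ± 0.47 (SE, n = 4 per subset, limma adjusted p = 0.00344). The ubiquitin-like modifier Isg15 had 4.44 and 4.20 (CT), 4.23 (T1DM) and 1.45 (T2DM) in Ly6C-high MCs and 2.12 and 2.26 (CT), 2.24 (T1DM) and 0.97 (T2DM) in Ly6C-low MCs, a log2FC of 1.68 ± 0.32 (SE, n = 4 per subset, limma adjusted p = 0.00377). In both, the T2DM Ly6C-high library lay below the other Ly6C-high libraries. Since 1 library of each subset represents T2DM mice, the difference of these mice has no replicate, and the interaction test described last called none of these genes. Without the T2DM libraries 18 of 20 were called higher, without the T1DM libraries 3, and with the CT libraries averaged to 1 the count was 4, in which Ifit3, Isg15 and Ifit1 were not called.

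Promoter sequence from RefSeq (GRCm38.p6) was set beside these calls. A promoter here is the window from 250 bases before to 50 after the start that the RefSeq promoter table lists first for a gene, and 9542 of the 12527 genes had one. The interferon-stimulated response element core, searched as GAAANNGAA on both strands, occurred in 11.6% of the 675 promoters of genes called higher, 9.34% of the 578 of genes called lower and 7.88% of all 9542, against 8.57% of the 27025 promoters of the whole table. It occurred in 10 of the 15 promoters of the interferon-stimulated list. The C/EBP site, searched as TTNNGNAA, occurred in 35.1%, 29.6% and 33.2% of the promoters of genes called higher, called lower and all. The AP-1 site TGANTCA occurred in 8.44%, 6.23% and 5.42%. Over the 27025 promoters of the whole table, C/EBP stood at 40.7% and AP-1 at 7.93%. In the same order (higher, lower, all), the PU.1 site GAGGAAGT occurred in 4.89%, 5.36% and 3.41%. The octamer ATGCAAAT occurred in 0.741%, 2.08% and 1.27%, and the NBRE site AAAGGTCA in 0.741%, 1.21% and 0.901%. A match describes letters and is no evidence of binding. Stretches of 4 promoters are shown because these genes were called higher and their windows hold the core more than once. They are written 5′ to 3′ on the strand of the gene and lie upstream of that listed start, with the core in capitals on whichever strand it lies. For Ifit3 the annotated gene begins at 34583119, ahead of the start in the promoter table, so that its stretch lies within the gene's span.
Isg15 (chr4:156200861-156200940, minus strand): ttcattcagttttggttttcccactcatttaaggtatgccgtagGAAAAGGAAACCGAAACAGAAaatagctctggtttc
Ifit1 (chr19:34640749-34640828, plus strand): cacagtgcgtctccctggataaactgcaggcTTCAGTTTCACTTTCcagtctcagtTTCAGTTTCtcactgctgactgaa
Ifit3 (chr19:34583371-34583450, plus strand): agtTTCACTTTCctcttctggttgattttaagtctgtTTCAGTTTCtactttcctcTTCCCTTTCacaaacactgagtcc
Oas3 (chr5:120777705-120777784, minus strand): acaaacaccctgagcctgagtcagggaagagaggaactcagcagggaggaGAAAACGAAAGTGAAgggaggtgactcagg
Each of these stretches held overlapping or neighbouring copies. Their log2FC were 1.68 for Isg15, 2.09 for Ifit1, 2.50 for Ifit3 and 1.85 for the oligoadenylate synthetase Oas3.

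CT libraries alone gave 543 called genes (4.33% of 12527), 344 higher and 199 lower. That count rests on both duplicates and on the variance model, with 0 calls without any 1 of the 4 CT libraries, with the replicate block or without the trend, and 1525 at an adjusted p limit of 0.05. The T1DM and T2DM libraries took no part in that test. Of the 344, 341 kept their sign in T1DM and 336 in T2DM mice, and 232 (67.4%) were past 2-fold in both. Of the 199, 195 kept their sign in T1DM and 195 in T2DM mice, and 173 (86.9%) were past 2-fold in both. Among genes that CT did not call, 7.85% of those with a positive and 10.7% of those with a negative CT difference were past 2-fold the same way in both diabetic groups. Of these 6022 positive genes, 4392 kept their sign in T1DM and 4449 in T2DM mice. Of the 5943 negative genes, 4186 and 4131 did. The uncalled genes are not matched in size, since their median CT differences were 0.425 and -0.475, against 1.553 and -2.868 for the called genes. The shares past 2-fold therefore differ in part by selection. Across the 12527 genes, the difference in CT mice correlated with that in T1DM (Pearson's r = 0.757) and in T2DM mice (0.731), and T1DM with T2DM (0.715). These are correlations across genes, which are not independent replicates, and the 3 differences share no library.

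**Figure D5:**
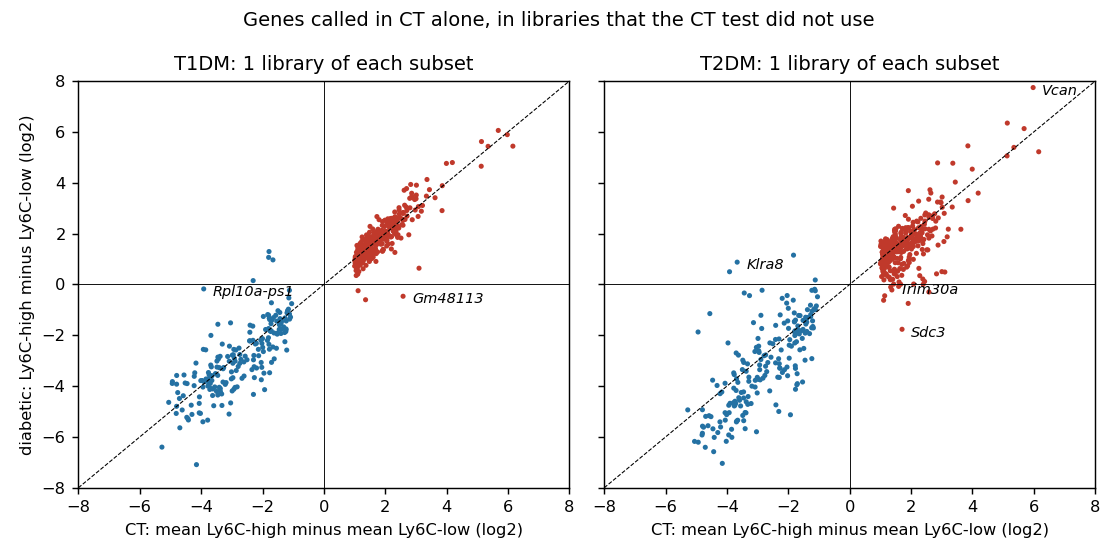
Log2 difference of Ly6C-high minus Ly6C-low in T1DM mice (left) and T2DM mice (right) against that in CT mice for the 543 genes called in CT alone, red for genes called higher and blue for genes called lower, with the dashed line at equality. The sign differs from that in CT for 7 genes in T1DM and 12 in T2DM mice.

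The genes called in CT whose sign turned in a diabetic pair numbered 18, 7 in T1DM and 12 in T2DM mice, and the ones named here were chosen after their values were seen. Sdc3, a heparan sulphate proteoglycan, had 7.01 and 7.00 (CT), 7.26 (T1DM) and 2.70 (T2DM) in Ly6C-high MCs and 5.32 and 5.28 (CT), 6.05 (T1DM) and 4.47 (T2DM) in Ly6C-low MCs, so that the T2DM Ly6C-high library was the lowest of the 8. Trim30a, an interferon-inducible regulator, had 8.26 and 8.22 (CT), 8.23 (T1DM) and 6.86 (T2DM) in Ly6C-high MCs and 6.94 and 6.86 (CT), 7.09 (T1DM) and 6.97 (T2DM) in Ly6C-low MCs. Klra8 (Ly49H), an NK cell receptor encoded by C57BL/6 mice, had 0.61 and 0.77 (CT), 2.34 (T1DM) and -0.49 (T2DM) in Ly6C-high MCs and 4.35 and 4.36 (CT), 5.59 (T1DM) and -1.37 (T2DM) in Ly6C-low MCs. Both T2DM values lay below every CT and T1DM value. The turned sign in T2DM mice is thus a difference between very low values of this gene, and its cause was not tested. The pseudogene Rpl10a-ps1, which shares 100% of its 31-base sequences with other genes, had 4.21 and 4.54 (CT), 6.71 (T1DM) and 7.41 (T2DM) in Ly6C-high MCs and 8.53 and 8.05 (CT), 6.89 (T1DM) and 6.92 (T2DM) in Ly6C-low MCs.

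The interaction test asked whether the subset difference differed between mouse groups, with the spread taken from the CT duplicates. At an adjusted p-value under 0.01 and a contrast beyond 1, limma called 0 of 12527 genes, while 1804 (14.4%) had an unadjusted p-value under 0.05. Cd74 had the smallest adjusted p (0.0326), with differences of -1.54 (CT), -1.45 (T1DM) and -3.84 (T2DM), and was followed by H2-Aa and H2-Ab1, each at 0.0991. Pecam1, an adhesion molecule of endothelium and leukocytes, differed by -0.26 (CT), -1.88 (T1DM) and -2.66 (T2DM) at an adjusted p of 0.175. The fit rests on 2 residual degrees of freedom, so a missed threshold does not show that the subset difference was the same in all mice.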

How the data were processed

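Bulk RNA-Seq of 8 libraries was analysed here, 4 of Ly6C-high and 4 of Ly6C-low MCs, each assigned to its group by its name in the deposited table. Per the labels, the authors ran Kallisto (0.45) with genome build mm10, summarised transcripts to genes in R (3.6.1) with tximport (1.12.3) and deposited normalised log2 expression values of 16486 symbols, from -4.05 to 15.64. The scaling between libraries, a filter on low genes and whether CT and diabetic libraries were adjusted to each other are not given in the sources used here. Exactly equal values were held by 205 to 667 genes in pairs of CT libraries and 151 to 332 in pairs of diabetic libraries. Between a CT and a diabetic library there were 0, and the cause was not tested. For CT against diabetic libraries, mouse group and sequencer cannot be told apart. The values hold no counts, so the depth behind each is unknown and no counting error can be given.

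limma (3.58.1, lmFit and eBayes with trend, in R 4.3.3) was fitted on all genes with the mouse group as covariate, with Benjamini-Hochberg adjustment over 16486 genes. Calls needed an adjusted p-value under 0.01 and a log2FC beyond 1, the study's criteria. No pseudocount was added. Calls were counted among the 12527 genes with a mean of 1 or more, 17 of which carry symbols that a spreadsheet turned into dates and are not named. CT alone and the interaction were fitted likewise. Named are the 15 largest rises and 15 largest falls with a mean of 5 or more and members of 45 gene lists. The genes, lists and tests were chosen with earlier results of these data known. The fits were tested on simulated data. Alternatives changed the filter, pseudocount, scaling, variance model, adjusted p limit of 0.05, covariate, replicate block and libraries. Shared 31-base sequences were computed from GENCODE M21 transcripts, and positions and promoters came from RefSeq (GRCm38.p6). Tables and figures were made with Python 3.11.15, numpy 2.4.6, pandas 2.3.3 and matplotlib 3.10.9.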

Additional observations from a re-analysis of the deposited data

How the results depend on the processing

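All 1650 called genes kept their sign under every alternative fitted, and between 1239 and 1650 of them stayed called, apart from the fits on CT libraries alone (498) and on diabetic libraries alone (0). The genes called higher and lower numbered 478 and 1313 after rescaling to a common sum, 344 and 199 in the CT libraries alone and 0 and 0 in the diabetic libraries alone, a fit with 1 residual degree of freedom. Leaving out 1 CT library gave 746 to 779 higher and 618 to 721 lower, where the lone CT library of a subset is assumed to vary like the others. With the pairs CT 1, CT 2, T1DM and T2DM as a replicate block, 798 genes were called higher and 738 lower. The replicate numbers of the CT libraries did not pair them, since their deviations correlated at -0.01 over 12527 genes. The 543 calls of CT alone became 1089 when only genes with a mean of 1 or more were fitted, 999 with robust eBayes, 1525 at an adjusted p limit of 0.05, and 0 without the trend, with the replicate block or without any 1 library, so that this count rests on the variance model and on both duplicates. The interaction, with 0 calls, gave 4 calls when only genes with a mean of 1 or more were fitted, 3 with robust eBayes, 1 at the limit of 0.05 and 2 under quantile normalization. The median was positive in 29 of 45 lists, and in 21 to 33 under the alternatives. Among genes named without a call, Nr4a1 turned to 0.18 in CT alone and, in the diabetic libraries alone, Rpl10a-ps1 to 0.16 and Sdc3 to -0.28. Precision followed abundance: the SD of the difference between CT duplicates was 0.468 in Ly6C-high MCs for genes with a mean from 3 to under 5 and 0.114 at 9 or above. Apart from the scaling and library changes named, the causes of these moves were not tested.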
